A study of Mus musculus with 16 samples.

Results

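A set of 10 genes that mark dividing cells was described across 4 groups of obese mice: Mki67, Top2a, Ccnb1, Ccnb2, Ccna2, Cdk1, Birc5, Mcm5, Mcm6 and Pcna. Members were chosen by symbol, as every probe that the platform annotation assigns to these 10 names. The annotation held 15 probes for 8 of the 10 names, out of 16593 genes on the array, and held none for Mki67 and Ccnb1, which were not analysed here. Of the 15 probes, 8 probes of 5 genes (Top2a, Cdk1, Birc5, Mcm5 and Mcm6) were above background often enough to be tested, and the other 7 probes were not. The same filter kept 13759 of all 25697 probes on the array, a like share.

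RNA came from epididymal white fat, the fat pad beside the testis, of diet-induced obese mice aged 4 to 5 months on a mixed c57b6/sv129 background, after 10 weeks of high-fat diet. Wild-type (WT) mice and mice lacking Fgf21 (Fgf21-KO), a hormone made by liver and fat, received vehicle or rosiglitazone at 10 mg/kg for 14 days, and all 4 groups shared the diet and the strain background. Each group held 2 pools of RNA from 2 mice each, and each pool was hybridised to 2 single-colour Illumina MouseRef-8 bead arrays. The pool was the replicate (n = 2 per group), so a pool value averages 2 mice and 2 technical arrays. Rosiglitazone activates PPARG, a nuclear receptor needed for fat cells to form. The labels name no promoter or Cre for the knockout.

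The division cycle runs from G1, in which D- and E-type cyclins with their kinases release E2F transcription factors, through DNA replication to mitosis. MCM proteins form the helicase that unwinds DNA at replication origins, PCNA is the sliding clamp that holds DNA polymerase on its template, and TOP2A untangles the copied strands. CDK1 with cyclin A or cyclin B drives entry into mitosis, BIRC5 (survivin) belongs to the chromosomal passenger complex that oversees chromosome attachment and cell separation, and Ki-67, the product of Mki67, coats mitotic chromosomes. Mature adipocytes are regarded as post-mitotic, and dividing cells in white fat are found among its precursor, immune and vascular cells. In whole tissue, fewer cells of a type and less RNA per cell cannot be told apart.

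Genes of this kind share promoter elements, so the 300 bases around the start sites were read from RefSeq (build GRCm38.p6, 250 bases before to 50 after the start), where 9 of the 10 names had an entry. Those of Top2a, Birc5 and Mcm5 are shown because Mcm5 was high in a WT rosiglitazone pool in which Top2a and some Birc5 probes were low, as described below. No link between promoter and level was tested. Each is written 5′ to 3′ on the gene's own strand in lower case, with matches to the motifs searched in capitals. Top2a is at chr11:99024140-99024439 on the minus strand, Birc5 at chr11:117848987-117849286 on the plus strand and Mcm5 at chr8:75109259-75109558 on the plus strand.
Top2a: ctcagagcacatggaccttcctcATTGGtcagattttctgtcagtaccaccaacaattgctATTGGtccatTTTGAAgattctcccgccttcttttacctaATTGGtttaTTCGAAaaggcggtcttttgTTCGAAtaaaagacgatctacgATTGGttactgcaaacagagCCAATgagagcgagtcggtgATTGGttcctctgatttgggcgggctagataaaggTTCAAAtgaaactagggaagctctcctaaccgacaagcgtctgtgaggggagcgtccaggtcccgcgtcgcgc
Birc5: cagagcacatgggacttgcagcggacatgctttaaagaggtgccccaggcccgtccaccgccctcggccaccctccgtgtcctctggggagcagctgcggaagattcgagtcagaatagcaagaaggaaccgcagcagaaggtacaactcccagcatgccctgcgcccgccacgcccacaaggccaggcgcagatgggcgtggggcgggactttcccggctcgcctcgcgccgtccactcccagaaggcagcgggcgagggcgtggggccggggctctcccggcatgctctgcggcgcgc
Mcm5: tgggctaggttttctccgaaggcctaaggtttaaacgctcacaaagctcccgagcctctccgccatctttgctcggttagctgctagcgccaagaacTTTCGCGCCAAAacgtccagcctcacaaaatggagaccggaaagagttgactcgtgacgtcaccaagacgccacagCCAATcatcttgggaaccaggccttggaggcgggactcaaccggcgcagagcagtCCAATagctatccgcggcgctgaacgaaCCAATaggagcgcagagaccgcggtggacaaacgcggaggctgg

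Both strands were searched for the CCAAT box (CCAAT), the cell cycle homology region known as CHR (TTTGAA or TTCGAA), E2F sites (TTTCCCGC, TTTCGCGC, TTTGCCGC or TTTGGCGC) and the PPAR response element (AGGTCA repeated in the same direction with any 1 base between the copies). Top2a held 6 CCAAT boxes and 4 CHR matches. Mcm5 held 3 CCAAT boxes and 2 E2F matches, which overlap each other and appear as 1 run of capitals. Birc5 held no match in this window. Over the 9 promoters, 8 held a CCAAT box, 4 a CHR match, 3 an E2F match and 0 a PPAR response element. Over all 32851 promoters of the same length, the shares were 37.4%, 19.2%, 2.26% and 0.0396% in the same order.

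The arrays themselves were alike in depth of detection. The median signal of an array lay between 144.9 and 192.3. Each array detected 47.6% to 51.0% of its 25697 probes, where detected means a scanner-table detection p of 0.05 or less. Fgf21 was detected on 4 of 4 arrays in each WT group and on 1 of 4 in each Fgf21-KO group, with signals of 319 to 358 under vehicle in WT and 129 to 155 under vehicle in Fgf21-KO, and of 288 to 560 and 129 to 168 under rosiglitazone. Whether its probe lies in the deleted part is not given in the sources used here. All 10 adipocyte marker genes that have a probe were detected and tested. Mean bead numbers were 36.0 to 38.9 on WT arrays and 39.4 to 40.7 on Fgf21-KO arrays, without overlap, so genotype and any chip or run shared by its arrays cannot be told apart. One pool stood apart: on the first principal component, which held 48.2% of the variance, WT rosiglitazone replicate 1 lay at 68.5 and the other 7 pools between -16.8 and -0.298. Summed levels of smooth muscle markers were highest there, at 16.4 on the log2 scale against 13.9 to 14.6 in the other pools, with 7 of 8 markers highest in that pool. Liver markers lay 3.45 above the other pools in Fgf21-KO vehicle replicate 2, with 8 of 9 highest there, and Fgf21-KO rosiglitazone replicate 2 had mesothelium markers at -1.19. Most of the members' differences that use WT rosiglitazone are therefore also given without one or the other of its pools.

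The 2 member cyclins with a probe were not detected at this sensitivity. Ccnb2 (ILMN_2611948), a cyclin B, and Ccna2 (ILMN_2672442), cyclin A, were each detected on 0 of 16 arrays. The signal of the Ccnb2 probe ranged from 90.2 to 165 and its smallest detection p was 0.214. The signal of the Ccna2 probe ranged from 95.5 to 145, with a smallest detection p of 0.456. Neither probe was well above background in any group, so no difference between groups is given.

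Pcna (ILMN_2762026) lay at the edge of detection. It was detected on 0 of 4 arrays in WT vehicle, 2 of 4 in WT rosiglitazone, 0 of 4 in Fgf21-KO vehicle and 1 of 4 in Fgf21-KO rosiglitazone. That is 3 of 16 arrays, just below the 4 required for testing. Signals were 138.5, 142.3, 169.7 and 170.3 in WT vehicle, 158, 187, 198 and 206 in WT rosiglitazone, 116.5, 119, 125 and 151 in Fgf21-KO vehicle, and 140.2, 156, 166.3 and 166.7 in Fgf21-KO rosiglitazone. These signals are not normalized, and the median signal of an array was lower in Fgf21-KO vehicle than in WT. The 2 detected WT arrays both belonged to WT rosiglitazone replicate 2. At a stricter detection p of 0.01, Pcna was detected on 0 arrays.

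Probes of 1 gene differed in whether they were detected. Of the 3 Cdk1 probes, ILMN_2657844 was detected on 16 of 16 arrays, with signals of 212 to 340, and the other two on 0 arrays. Of the 4 Mcm6 probes, ILMN_1233857 and ILMN_2803399 were each detected on 16 arrays, and ILMN_1217331 and ILMN_1236125 on 0. The single Mcm5 probe (ILMN_2742849) was detected on all 16 arrays, at signals of 465 to 1062. All 3 Birc5 probes were tested: ILMN_2632712 was detected on 16 arrays, ILMN_2681241 on 15 and ILMN_2603699 on 14. The single Top2a probe (ILMN_2830661) was detected on 14. Every array on which a Top2a or Birc5 probe was not detected came from WT rosiglitazone replicate 1, as the plot of signals by probe and array shows.

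**Figure D1:**
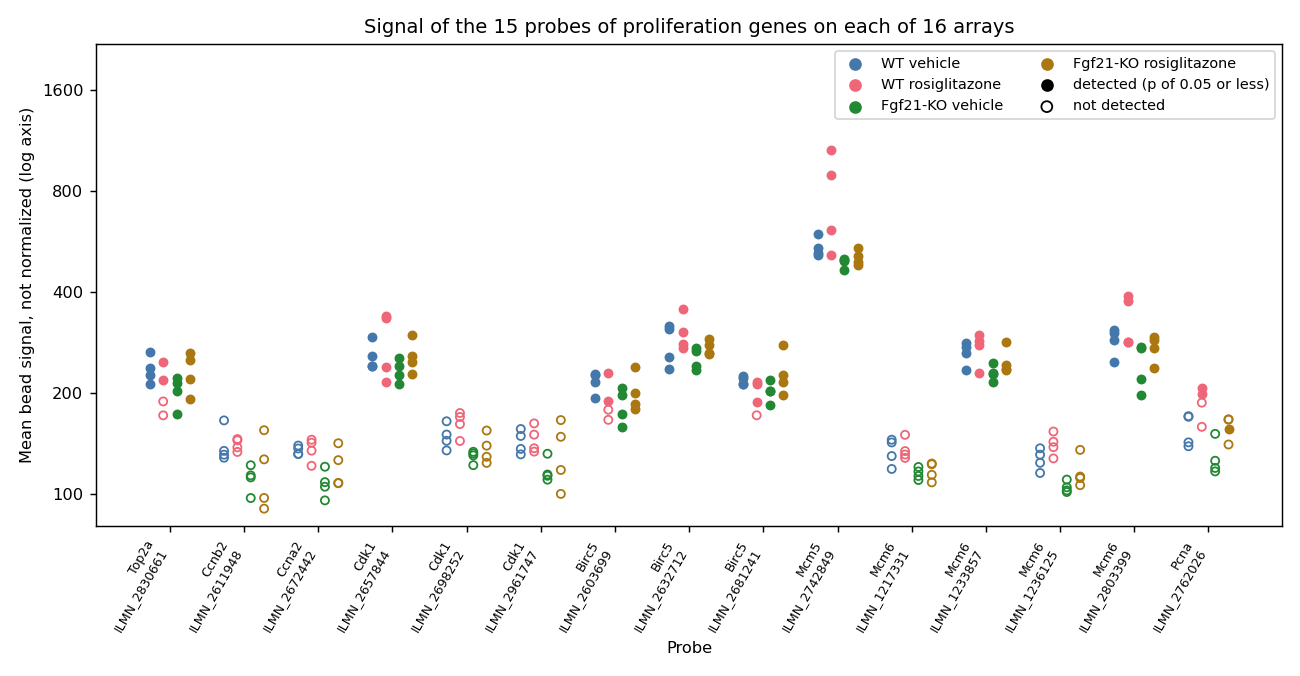
Mean bead signal (not normalized, log axis) of the 15 probes on each of the 16 arrays, coloured by group, with filled points where the detection p was 0.05 or less and open points otherwise. Mcm5, Cdk1 ILMN_2657844, 2 Mcm6 probes and Birc5 ILMN_2632712 were detected on all 16 arrays, and 6 of the 15 probes on none.

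For the 8 tested probes, signals were background-corrected, quantile normalized and put on the log2 scale, and the 2 arrays of a pool were averaged. A level is thus a log2 normalized intensity, and a difference of 1 is a doubling. Levels of different probes are not compared with each other, because probes differ in brightness for equal RNA. One linear model (limma) was fitted to all 13759 probes that were detected on at least 4 arrays, with Benjamini-Hochberg adjustment over all of them and a threshold of 0.05. Errors of log2 differences are that fit's standard errors (SE), which rest on 1 spread per probe shared by all 4 groups.

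Among the replication genes, Mcm5, a helicase subunit, stood near 1 level in 7 of 8 pools. Its levels were 8.63 and 8.55 in WT vehicle, 9.42 and 8.50 in WT rosiglitazone, 8.67 and 8.78 in Fgf21-KO vehicle, and 8.78 and 8.78 in Fgf21-KO rosiglitazone. WT rosiglitazone replicate 1 was the high pool, and replicate 2 of the same group was the lowest of the 8. The 2 arrays of a pool differed by a mean of 0.083 for Mcm5, against a mean of 0.28 between the pools of a group, so the gap of 0.92 between the WT rosiglitazone pools was well above the technical spread.

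Mcm6 encodes another subunit of the same helicase, and its 2 detected probes followed partly different courses. ILMN_2803399 read 6.93 and 7.43 in WT vehicle, 7.76 and 6.96 in WT rosiglitazone, 7.05 and 7.25 in Fgf21-KO vehicle, and 7.38 and 7.50 in Fgf21-KO rosiglitazone. ILMN_1233857 read 6.77 and 7.14, 7.04 and 6.70, 6.96 and 7.16, and 7.10 and 7.29 in the same order of groups. Only the first of the probes was highest in WT rosiglitazone replicate 1; for both, the pools of every pair of groups overlapped except the 2 Fgf21-KO groups for ILMN_2803399 and, for ILMN_1233857, the 2 rosiglitazone groups. The arrays of a pool differed by a mean of 0.34 and 0.27 for these probes, close to the mean gaps of 0.40 and 0.27 between pools of a group.

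Top2a was low in 1 pool. Its levels were 6.38 and 6.82 in WT vehicle, 5.44 and 6.37 in WT rosiglitazone, 6.51 and 6.85 in Fgf21-KO vehicle, and 7.10 and 6.86 in Fgf21-KO rosiglitazone. Both WT rosiglitazone pools lay below every other pool, replicate 2 by little and replicate 1 at a level where its arrays were not above background. The arrays of a pool differed by a mean of 0.40 and the pools of a group by a mean of 0.49, so the technical spread was close to the spread between pools.

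Cdk1, the mitotic kinase, showed no common course in WT rosiglitazone. Its levels were 6.63 and 7.15 in WT vehicle, 7.48 and 6.28 in WT rosiglitazone, 7.005 and 7.19 in Fgf21-KO vehicle, and 7.33 and 7.26 in Fgf21-KO rosiglitazone. The highest and the lowest of the 8 pools were thus the 2 pools of WT rosiglitazone, 1.20 apart, against gaps of 0.067 to 0.52 in the other groups.

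Birc5 was measured by 3 probes, of which 2 followed a like course. ILMN_2681241 read 6.37 and 6.36 in WT vehicle, 5.45 and 6.09 in WT rosiglitazone, 6.55 and 6.83 in Fgf21-KO vehicle, and 6.93 and 6.93 in Fgf21-KO rosiglitazone. ILMN_2603699 read 6.10 and 6.48, 5.31 and 5.99, 5.999 and 6.71, and 6.56 and 6.49 in the same order. For both of these probes the WT rosiglitazone pools were below both pools of WT vehicle, and replicate 1 was the lowest of the 8. ILMN_2632712 read 7.11 and 7.10, 7.41 and 6.87, 7.14 and 7.50, and 7.40 and 7.51, so that on this probe replicate 1 of WT rosiglitazone was above both WT vehicle pools and replicate 2 below them. The probes of Birc5 therefore disagree on the WT rosiglitazone group, and the reason was not tested.

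**Figure D2:**
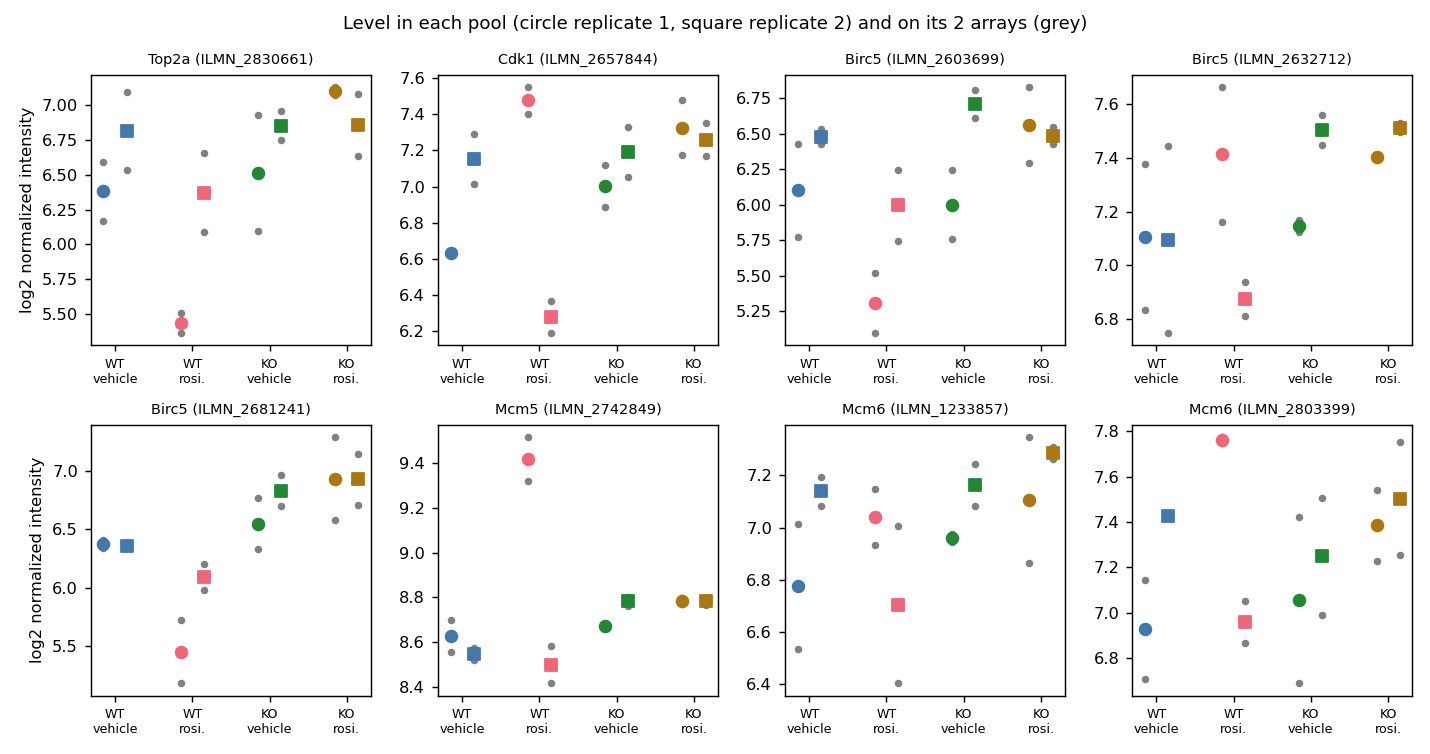
Log2 normalized intensity of the 8 tested probes in each pool (circle for replicate 1, square for replicate 2, coloured by group) and on the 2 arrays of that pool (small grey points). In WT rosiglitazone, replicate 1 was the lowest pool for Top2a and for Birc5 ILMN_2603699 and ILMN_2681241 and the highest for Cdk1, Mcm5 and Mcm6 ILMN_2803399.

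The first comparison asks what rosiglitazone did in WT mice. Of the 8 tested probes, 0 passed the threshold, as did 0% of the 13759 probes. At an unadjusted p under 0.05, 1 of the 8 was lower (Birc5 ILMN_2681241), against 3.83% of all probes, and 0 were higher, against 4.48%. The log2 difference, rosiglitazone minus vehicle, was -0.69 for Top2a (SE 0.33, limma adjusted p = 0.587), with a 95% interval of -1.47 to 0.08. For Birc5 it was -0.59 by ILMN_2681241 (SE 0.22, limma adjusted p = 0.571, 95% interval -1.13 to -0.06), -0.64 by ILMN_2603699 and 0.04 by ILMN_2632712. The probes of Top2a and Birc5 that were lower are the 3 of 8 whose pools did not overlap on the low side, a pattern seen in 17.3% of all probes, and 0 of 8 did not overlap on the high side, against 17.6%. By sign, 3 of 8 were higher, against 52.2% of all probes. For Mcm5 the difference was 0.37 (SE 0.28, limma adjusted p = 0.631), for Mcm6 0.18 and -0.09, and for Cdk1 -0.01 with a 95% interval of -0.92 to 0.89.

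These differences depended on which WT rosiglitazone pool was kept. Without replicate 1, Top2a was at -0.22 (limma adjusted p = 0.938), Birc5 ILMN_2681241 at -0.27 (limma adjusted p = 0.806), Mcm5 at -0.09 and Cdk1 at -0.61, and 0 of 8 probes passed. Without replicate 2, when replicate 1 alone stands for its group and is assumed to vary like the others, 3 of 8 passed, as did 19.6% of all probes. Replicate 1 did not detect Top2a on either array, so only a bound can be given for it. The mean of WT vehicle was at least 1.86-fold above that pool, with the lowest detected level of each array as the limit. Birc5 ILMN_2681241, detected on 1 of the 2 arrays, was at -0.91 (limma adjusted p = 0.0112) and Mcm5, detected on both, at 0.83 (limma adjusted p = 0.00814). Cdk1 stood at 0.58. The 3 probes that passed thus did not share a direction.

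In Fgf21-KO mice, none of the 8 probes passed on rosiglitazone (0 of 8, against 0% of all probes). At an unadjusted p under 0.05 the count was 0 in both directions, against 2.83% of all probes higher and 2.8% lower. All 8 log2 differences were above 0 by sign, from 0.06 for Mcm5 to 0.30 for Top2a (SE 0.33), each with a limma adjusted p of 0.999973, against 50.8% of all probes above 0; with median scaling in place of quantile normalization Mcm5 was at -0.03. The pools of 5 of the 8 probes did not overlap on the high side, 1 from each of the 5 genes, against 22.9% of all probes, and 0 did so on the low side, against 21.1%. Of these, Mcm5 nearly tied, with its nearest pools at 8.7834 (vehicle) and 8.7840 (rosiglitazone), as did Top2a at 6.854 and 6.858. Both gaps were below the mean difference between arrays of a pool (0.083 and 0.40). The 95% interval for Top2a ran from -0.48 to 1.07 and that for Birc5 ILMN_2681241 from -0.29 to 0.77, so these data leave room for changes in either direction. Leaving out Fgf21-KO vehicle replicate 1 put Birc5 ILMN_2603699 at -0.19 and ILMN_2632712 at -0.05, and leaving out replicate 2 put them at 0.53 and 0.31.

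Whether the genotypes differed before treatment is asked by the vehicle groups. Of the 8 probes, 0 passed, against 0% of all probes, and at an unadjusted p under 0.05 the count was 0 against 2.33% higher and 2.43% lower. The log2 differences, Fgf21-KO minus WT, ran from -0.03 (Mcm6 ILMN_2803399) to 0.32 (Birc5 ILMN_2681241, SE 0.22, limma adjusted p = 0.999966). Top2a was at 0.09 (SE 0.33), Cdk1 at 0.21 (SE 0.38) and Mcm5 at 0.14 (SE 0.28), each smaller than its error. These errors are shared by all 4 groups and do not show the spread of the vehicle pools alone. The gap between pools was widest in WT rosiglitazone for each of these probes. For Mcm5 it was 0.92 there, against 0.081 in WT vehicle and 0.11 in Fgf21-KO vehicle. The pools of 3 probes did not overlap on the high side (2 of Birc5 and that of Mcm5), against 20.4% of all probes, and 0 on the low side, against 22.5%. By sign, 7 of 8 were higher in Fgf21-KO, against 49% of all probes. Without WT vehicle replicate 1 the difference was -0.13 for Top2a, -0.06 for Cdk1, -0.08 for Mcm6 ILMN_1233857 and -0.28 for Mcm6 ILMN_2803399. Without WT vehicle replicate 2 the same 4 stood at 0.30, 0.47, 0.29 and 0.22. Birc5 ILMN_2603699 was at -0.29 without Fgf21-KO vehicle replicate 2 and at 0.42 without replicate 1.

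Between the genotypes under rosiglitazone, Top2a and Birc5 were higher in Fgf21-KO, by up to 2.23-fold, but none of the 8 probes passed (0% of all probes). At an unadjusted p under 0.05, 3 of 8 probes were higher in Fgf21-KO, 1 of Top2a and 2 of Birc5, against 7.75% of all probes, and 0 were lower, against 8.1%. Birc5 ILMN_2681241 was 1.16 higher (SE 0.22, limma adjusted p = 0.144), which is 2.23-fold, with a 95% interval of 0.63 to 1.69. Top2a was 1.08 higher (SE 0.33, limma adjusted p = 0.242), which is 2.11-fold, with a 95% interval of 0.30 to 1.85; its probe was detected on 2 of the 4 WT rosiglitazone arrays, so this value includes a pool not above background. The Birc5 probes ILMN_2681241 and ILMN_2603699 were detected on 3 and 2 of these 4 arrays. Birc5 ILMN_2603699 differed by 0.87 (SE 0.31, limma adjusted p = 0.281) and ILMN_2632712 by 0.31 (SE 0.21, limma adjusted p = 0.452). Cdk1 was at 0.42, Mcm6 at 0.32 and 0.08, and Mcm5 at -0.18 (SE 0.28); Mcm6 ILMN_2803399 turned to -0.090 under median scaling. By sign, 7 of 8 were higher, against 49% of all probes. The pools of 4 of 8 did not overlap on the high side, against 22.3%, and those of 0 on the low side, against 24.1%.

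Here too the WT rosiglitazone pools set the result. Without replicate 1, 0 of 8 probes passed, with Top2a at 0.61 (limma adjusted p = 0.341), Birc5 ILMN_2681241 at 0.84 and Cdk1 at 1.01 (limma adjusted p = 0.151). Without replicate 2, 4 of 8 passed, as did 24.6% of all probes. Replicate 1 detected neither Top2a nor Birc5 ILMN_2603699. The mean of Fgf21-KO rosiglitazone was at least 2.43-fold above that pool for Top2a and at least 1.77-fold for this Birc5 probe. Birc5 ILMN_2681241 was at 1.48 (limma adjusted p = 0.0018) and Mcm5 at -0.63 (limma adjusted p = 0.0175). Cdk1 stood at -0.18. Top2a and both of these Birc5 probes were higher in Fgf21-KO with either pool left out. This follows from their pools not overlapping, and is no further check. Mcm5, whose pools overlapped, was at 0.28 without replicate 1. When all 16 arrays were fitted with the pool as a random block, Birc5 ILMN_2681241 passed (limma adjusted p = 0.0313) and the other 7 probes did not. In that fit 4.84% of all probes passed. It applies 1 correlation between the arrays of a pool, 0.45, to all probes, so technical arrays count in part as replicates. Over the alternatives tried, the adjusted p of this probe ran from 0.0018 to 0.546.

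**Figure D3:**
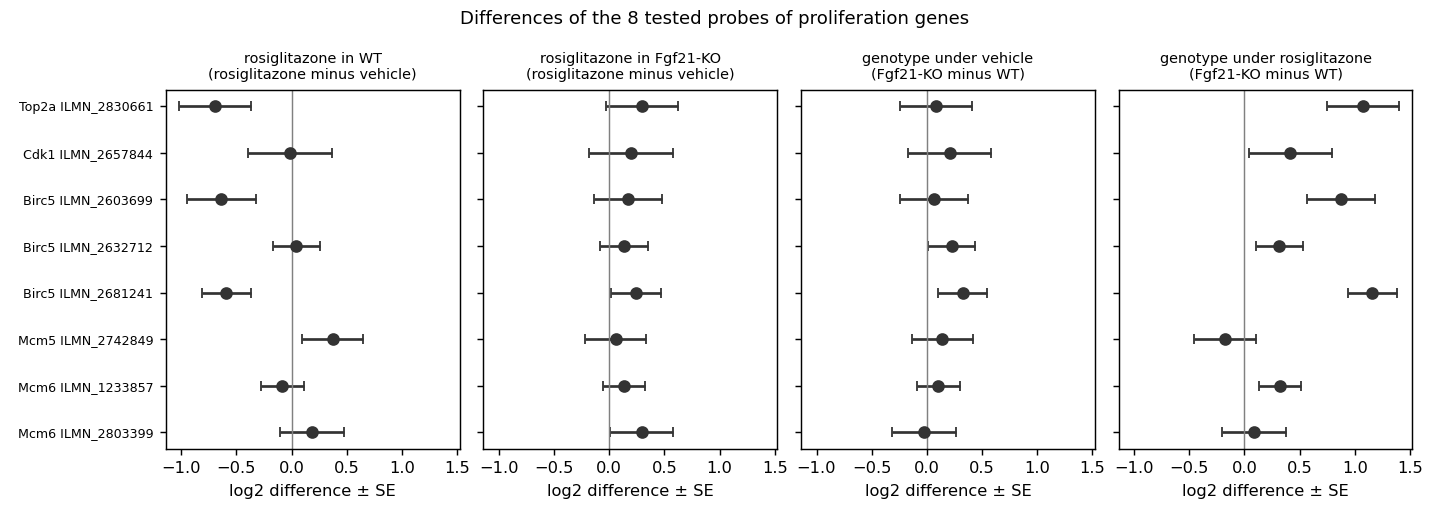
Log2 differences with their standard errors (bars) of the 8 tested probes in the 4 comparisons of 2 groups, rosiglitazone minus vehicle in the left 2 panels and Fgf21-KO minus WT in the right 2. Top2a, Birc5 ILMN_2603699 and Birc5 ILMN_2681241 lie between -0.69 and -0.59 for rosiglitazone in WT and between 0.87 and 1.16 for genotype under rosiglitazone, comparisons that share the WT rosiglitazone pools.

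The interaction, the response in Fgf21-KO minus the response in WT, tests whether the genotypes responded differently. Of the 8 probes 0 passed, against 0% of all probes, and 1 of 8 was higher at an unadjusted p under 0.05 (Birc5 ILMN_2681241), against 2.28%, and 0 lower, against 2.67%. By sign, 7 of 8 were above 0, against 48.5% of all probes. The difference of responses was 0.99 for Top2a (SE 0.46, limma adjusted p = 0.827), 0.83 for Birc5 ILMN_2681241 (SE 0.32, limma adjusted p = 0.827) and 0.81 for Birc5 ILMN_2603699 (SE 0.44, limma adjusted p = 0.827). Mcm5 was at -0.31 and Cdk1 at 0.21, with 95% intervals of -1.25 to 0.62 and -1.07 to 1.49. Without WT rosiglitazone replicate 2, 3 of 8 passed, as did 12.4% of all probes. These were Birc5 ILMN_2681241 at 1.15, Mcm5 at -0.77 and Top2a, for which no size is given because it was not detected in the WT rosiglitazone pool left. Without replicate 1, 0 passed, with Top2a at 0.52, Birc5 ILMN_2681241 at 0.51 and Mcm5 at 0.14. Cdk1 was at -0.39 without replicate 2 and at 0.81 without replicate 1.

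Averaged over genotypes, rosiglitazone gave 0 of 8 probes past the threshold, against 0% of all probes, and 0 at an unadjusted p under 0.05, against 4.8% higher and 3.95% lower; 5 of 8 were above 0 by sign, against 50.5%. Averaged over treatments, genotype gave 0 of 8, against 0.0218% of all probes, and 2 of 8 higher at an unadjusted p under 0.05 (the probe of Top2a and Birc5 ILMN_2681241), against 6.3%, and 0 lower, against 7.73%; 7 of 8 were above 0 by sign, against 49.9%. Without WT rosiglitazone replicate 2 the counts past the threshold were 1 and 2 of 8, against 13.3% and 20% of all probes. Taking each of the 5 tested genes by its brightest probe, the median log2 difference was 0.04 for rosiglitazone in WT, 0.19 for rosiglitazone in Fgf21-KO, 0.14 for genotype under vehicle and 0.31 for genotype under rosiglitazone. It was 0.11 for the interaction, 0.09 for rosiglitazone averaged over genotypes and 0.27 for genotype averaged over treatments. The medians over all probes lay between -0.013 and 0.015. The SD of the median between pools of a group was 0.299, as large as most of these values, and for Birc5 the brightest probe is ILMN_2632712, which differed from the other two.

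The wider cell cycle was read from 4 lists of other genes. None of their tested genes passed in any of the 7 comparisons, among 16 of G1 cyclins, kinases and E2F factors, 28 of DNA replication, 19 of mitosis and 13 of cell cycle inhibitors. Among the 4 lists, mitosis genes were the least often above background. Of 40 with a probe, 14 were detected on no array, among them Bub1, a checkpoint kinase, and Tpx2, a spindle assembly factor. Of 35 replication genes, 6 were detected on no array, among them Pola1 and Prim1, subunits of the polymerase that starts new DNA strands. From the G1 list 3 of 19 (Cdk6, E2f7 and Rbl2) and from the inhibitors 2 of 15 (Btg2 and Cdkn1b) were likewise detected on none. The genes tested were 19 of 40 for mitosis, 28 of 35 for replication, 16 of 19 for G1 and 13 of 15 for inhibitors. Over the array, 9543 of 16593 genes were tested, and the share detected on no array was not counted.

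In WT mice, the genes of smallest p on rosiglitazone in the G1 list were Foxm1, a transcription factor of mitotic genes, at -0.44 (SE 0.16, limma adjusted p = 0.571), and Myc, a growth-promoting transcription factor, detected on 3 of 4 arrays in WT vehicle and 0 of 4 in WT rosiglitazone. The measured mean of Myc in WT vehicle was 1.12-fold above WT rosiglitazone, taking the lowest detected level of each array as the limit there. That mean includes an array that did not detect Myc, so the bound is approximate. The fit to its measured values, which does not test this bound, gave limma adjusted p = 0.572. In the replication list they were Fen1, the flap nuclease of lagging strands, at 0.46, and Mcm3, also a subunit of the helicase, at -0.79 (SE 0.34, limma adjusted p = 0.587). Mcm3 read 6.62 and 7.03 in WT vehicle and 5.55 and 6.53 in WT rosiglitazone, so its low pool was the same as that of Top2a, while Mcm5 was high in it. Without WT rosiglitazone replicate 2 both passed, with Fen1 at 0.65 and Mcm3, detected on 1 of the 2 arrays left, at -1.28 (19.6% of all probes passed), and without replicate 1 they stood at 0.27 and -0.29. In the mitosis list Cdca8, a partner of survivin in the passenger complex, was at -0.43 (SE 0.18) and, without replicate 1, at -0.25, and Cdca5, the cohesion factor sororin, was detected on 1 of 4 arrays in WT rosiglitazone and 0 of 4 in WT vehicle. Among inhibitors Cdkn2a was at -0.35 and Ccng1, a p53 target, at 0.19. By sign, 23 of 28 replication genes and 14 of 19 mitosis genes were above 0 in this comparison, against 52.2% of all probes, with medians of 0.15 and 0.09. These counts rested on WT rosiglitazone replicate 1: in a check added after seeing the data, 10 of 28 and 4 of 19 were above 0 without it (46.6% of all probes), with medians of -0.038 and -0.25, and 24 of 28 and 17 of 19 without replicate 2 (55.2%).

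In Fgf21-KO mice the genes of smallest p on rosiglitazone were Ccne1, a cyclin E, at 0.37, Ung, a uracil-DNA glycosylase, at 0.52, Dut, which removes dUTP, at -0.37, Nusap1, a spindle protein, at -0.36, and the inhibitors Ccng2 at 0.31 and Cdkn2c at 0.26. Mybl2 was detected on 0 of 4 Fgf21-KO rosiglitazone arrays, and Cdca5 on 3 of 4. The measured rosiglitazone mean of Cdca5 was 1.14-fold above vehicle, taking the lowest detected level of each array as the limit there. That mean includes an array that did not detect Cdca5, so the bound is approximate. The limma adjusted p-values of the genes named here ran from 0.885 (Ung) to 0.968 (Cdkn2c). List medians were near 0 in this comparison: 0.02 for G1, 0.01 for replication, 0.02 for mitosis and 0.01 for inhibitors.

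Between the genotypes under vehicle, Ccnd2, a D-type cyclin, was at -0.37, Rbl1, a pocket protein that holds E2F, at -0.27, Mcm10, an initiation factor, at 0.69, Fen1 at 0.31, Kif23, a motor of cell separation, at 0.71, Cdca8 at 0.31, Cdkn2c at 0.35 and Ccng2 at 0.29. The smallest of their limma adjusted p-values was 0.967 (Kif23). Under rosiglitazone, Cdca8 was at 0.80 (SE 0.18, limma adjusted p = 0.172), Cdkn2c, which encodes the CDK4 and CDK6 inhibitor p18, at 0.66 (SE 0.16, limma adjusted p = 0.181) and Dut at -0.65 (SE 0.17, limma adjusted p = 0.206). Tfdp1, the dimer partner of E2F, was at 1.11 (limma adjusted p = 0.273), Mcm3 at 1.07 (limma adjusted p = 0.253), Ccng2 at 0.43 (0.26 without WT rosiglitazone replicate 1) and Bub3 at -0.24, and Myc was at least 1.22-fold higher in Fgf21-KO. Cdkn2c read 11.85 and 11.93 in WT vehicle, 11.64 and 12.04 in WT rosiglitazone, 12.24 and 12.24 in Fgf21-KO vehicle, and 12.52 and 12.50 in Fgf21-KO rosiglitazone, so every Fgf21-KO pool was above every WT pool. The same held for Cdca8, Tfdp1 and the member probe Birc5 ILMN_2681241. The share of all probes with this pattern was not counted. Without WT rosiglitazone replicate 2, 24.6% of all probes passed under rosiglitazone, among them Tfdp1, Dut, Mcm3, Bub3 and Cdkn2c, at 1.77, -0.83, 1.56, -0.54 and 0.86, and Cdca8, at least 1.57-fold higher in Fgf21-KO because the pool left did not detect it. Mcm3 was detected on 1 of the 2 arrays of that pool. Without replicate 1 Tfdp1, Dut, Mcm3, Bub3, Cdkn2c and Cdca8 stood at 0.45, -0.47, 0.58, 0.065, 0.46 and 0.63. Tfdp1, Mcm3 and Cdkn2c also passed with 16 arrays and the pool as a random block, as did 4.84% of all probes.

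For the interaction, the genes of smallest p were Ccnd1, cyclin D1, at -0.57, Mcm10 at -1.07, Dut at -0.53, Cdca8 at 0.50, Kif23 at -0.53, Cdkn2c at 0.31 and Ccng1 at -0.24, all with a limma adjusted p of 0.827; Myc was at 0.62, a value that includes a group in which it was not detected. Ccnd1 was at -0.95 without WT rosiglitazone replicate 2 and at -0.19 without replicate 1. Without replicate 1 Cdkn2c stood at 0.11, Cdca8 at 0.32 and Dut at -0.35, and without replicate 2 Cdkn2c stood at 0.51. For rosiglitazone averaged over genotypes they were Ccne1 at 0.28, Foxm1 at -0.29, Ung at 0.36, Fen1 at 0.24, Nusap1 at -0.28, Ccng2 at 0.24, Cdkn2a at -0.20 and Cdca5, which was not detected under vehicle in either genotype. For genotype averaged over treatments they were Cdkn2c at 0.51 (SE 0.11, limma adjusted p = 0.157), Cdca8 at 0.56 (SE 0.13, limma adjusted p = 0.165), Dut at -0.38, Mcm3 at 0.59, Tfdp1 at 0.69, Ccnd2 at -0.29, Kif23 at 0.45 and Ccng2 at 0.36. Without WT rosiglitazone replicate 2, Ung, Fen1, Nusap1 and Ccng2 stood at 0.49, 0.34, -0.16 and 0.16 for rosiglitazone. For genotype, Cdkn2c, Dut, Mcm3 and Tfdp1 then stood at 0.61, -0.47, 0.83 and 1.02. No size is given for Cdca8, which was not detected in the pool left. Without replicate 1, Ung and Fen1 stood at 0.22 and 0.15 for rosiglitazone. For genotype, Cdkn2c, Dut, Mcm3, Tfdp1 and Cdca8 stood at 0.41, -0.29, 0.34, 0.36 and 0.47.

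The lists were also read in the pool that stood apart. In WT rosiglitazone replicate 1, 16 of 28 replication genes and 11 of 19 mitosis genes were at their highest of the 8 pools, as were 32.3% of all tested probes, and the list medians lay 0.37 and 0.28 above the mean of the other 7 pools. In WT rosiglitazone replicate 2 the mitosis median lay at -0.29 and the replication median at -0.08. Markers of other cell types in the same pool read as follows: the smooth muscle list lay 2.36 above the other pools, the epithelium list 1.25 (4 of 6 markers highest) and the mast cell list 1.05 (6 of 7 highest), while the macrophage list lay at -0.12 (2 of 15 highest). In replicate 2, ciliated cell markers lay 2.31 above the other pools (3 of 5 highest), with a summed level of 11.2 against 9.42 to 10.0 elsewhere, and mast cell markers 0.70 above. Summed epithelium markers stood at 10.9 in replicate 1 and between 8.78 and 10.1 elsewhere, summed mast cell markers at 11.2 and 11.4 in the WT rosiglitazone pools and between 9.76 and 10.6 elsewhere, and summed macrophage markers at 14.9 against 15.1 to 15.4 (all log2). The part of these cell types in the values of the proliferation genes was not tested.

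**Figure D4:**
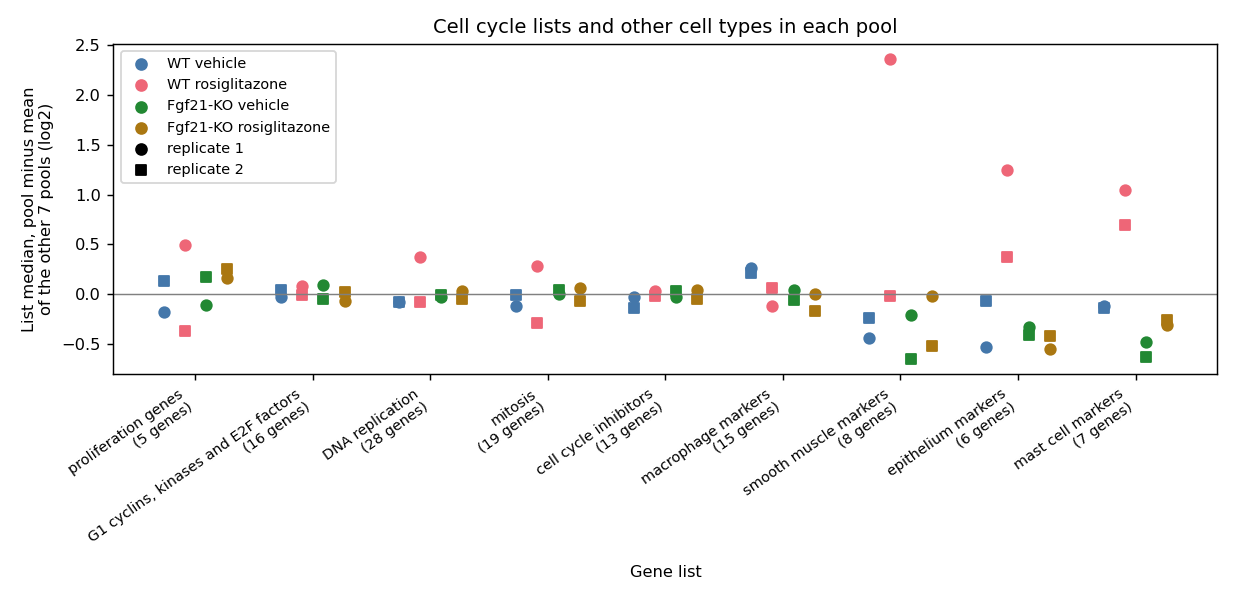
Median over each list's tested genes of the log2 level in a pool minus the mean of the other 7 pools, for the 5 tested proliferation genes (brightest probe), 4 cell cycle lists and 4 lists of other cell types (circle for replicate 1, square for replicate 2, coloured by group). WT rosiglitazone replicate 1 lies 2.36 above the other pools for smooth muscle markers and 0.37 above for DNA replication.

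The mean course of the 5 tested genes over the 8 pools, each by its brightest probe and centred on its own mean, was -0.24 and 0.03 in WT vehicle, 0.12 and -0.38 in WT rosiglitazone, -0.10 and 0.14 in Fgf21-KO vehicle, and 0.22 and 0.21 in Fgf21-KO rosiglitazone. The 5 probes of other genes closest to it, by root mean square difference over these 8 pools, were those of Lpxn (0.082), Col4a6 (0.085), Serhl (0.086), Epb41l1 (0.090) and Dbnl (0.092). Among the members' own probes the same distance ran from 0.077 (Mcm6 ILMN_1233857) to 0.47 (Top2a), so the members did not share 1 course.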

How the data were processed

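Per the file headers, each array of the deposited non-normalized table has a linear bead intensity, a detection p-value and a bead number for every probe. The normalized table and the series matrix deposited by the authors hold the same intensity values (largest difference 0), used as an alternative. Of the table columns, 64 were not used. Scanner software and the authors' normalization settings are not given in the sources used here.

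Intensities were corrected by limma 3.58.1 (R 4.3.3) with nec, which fits the normexp model from detection p-values (offset 16), then quantile normalized, logged to base 2 and averaged over the arrays of a pool. Probes kept were detected on 4 or more of the 16 arrays (detection p up to 0.05): 13759 of 25697, for 9543 genes, with 789 probes lacking a symbol. One model of 4 group means (lmFit, eBayes) gave 7 two-sided contrasts with 4 residual degrees of freedom and 2.75 from the prior. P-values, errors and intervals rest on the spread between 2 pools a group, taken as equal in all 4 groups, which limits precision. Over all tested probes the median gap between pools was 0.32 in WT rosiglitazone and 0.14 to 0.16 in the other groups. Errors may thus be too small for comparisons with WT rosiglitazone and too large for those without it. The script was tested on simulated data.

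The members and lists were chosen with earlier results of these data known. All members were to be named, and in each cell cycle list the 2 genes of smallest p per contrast. Symbols come from the platform annotation. Alternatives changed background correction, scaling, source, filter, variance model, groups in the fit and weights, used 16 arrays, a replicate block or the mean of a gene's probes, and left out each pool. The authors' statistics table was not used.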

Additional observations from a re-analysis of the deposited data

Results flagged for a closer look

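The Top2a probe and Birc5 ILMN_2681241 were flagged because their rosiglitazone pools lay below the vehicle pools of WT mice. In Fgf21-KO mice the rosiglitazone pools lay above the vehicle pools, again without overlap. For Top2a these were near ties. The nearest WT pools read 6.373 (rosiglitazone) against 6.381 (vehicle). The nearest Fgf21-KO pools read 6.858 (rosiglitazone) against 6.854 (vehicle). Arrays of a pool differed by a mean of 0.40 for this probe. Pools of the other Birc5 probes overlapped in Fgf21-KO. The share of all probes with such an opposite pattern is not given. For Top2a (ILMN_2830661) the response in Fgf21-KO minus that in WT was 0.99 on the log2 scale, from a difference of -0.69 in WT and 0.30 in Fgf21-KO. For Birc5 (ILMN_2681241) it was 0.83, from -0.59 in WT and 0.24 in Fgf21-KO. The interaction was tested for both, and neither passed (limma adjusted p = 0.827 for each). The other Birc5 probes stood at 0.81 and 0.09. Without WT rosiglitazone replicate 1 the values were 0.52 and 0.51. Without replicate 2 both passed, as did 12.4% of all probes, but the WT rosiglitazone pool left detected Top2a on 0 of 2 arrays (limma adjusted p = 0.0339, no size given) and Birc5 ILMN_2681241 on 1 of 2 (1.15, limma adjusted p = 0.0172).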

How the results depend on the processing

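Of 96 differences of single probes recomputed under the alternatives (1788 values), 1720 kept their direction and side of the threshold, 37 turned sign and 31 came to pass the threshold, with the lone pool of a left-out pair assumed to vary like the other groups. Outside left-out pools, the sign turned for Cdk1 on rosiglitazone in WT, to 0.0059 with an offset of 50, 0.017 without background correction, 0.014 with median scaling and 0.017 with the authors' normalized table. Median scaling also turned Mcm5 on rosiglitazone in Fgf21-KO to -0.026, Mcm6 ILMN_2803399 between genotypes under rosiglitazone to -0.090 and in the interaction to -0.022, and Birc5 ILMN_2632712 in the interaction to -0.024. It moved the median of all probes to -0.17 between genotypes under rosiglitazone, -0.11 for the interaction and -0.11 for genotype averaged over treatments, where the members' median was then 0.14, -0.02 and 0.16. The share of all probes above 0 went from 49.0% to 33.8% between genotypes under rosiglitazone, from 48.5% to 38.1% for the interaction, from 49.9% to 33.2% for genotype averaged over treatments, from 50.8% to 35.2% for rosiglitazone in Fgf21-KO and from 49.0% to 35.6% for genotype under vehicle. With 16 arrays and the pool as a random block, 1 member probe passed between genotypes under rosiglitazone, as did Tfdp1 (1.11), Mcm3 (1.07) and Cdkn2c (0.66, and 0.51 averaged over treatments). In that fit 4.84% of all probes passed between genotypes under rosiglitazone, and 3.89% for genotype averaged over treatments. At a detection p of 0.01 Pcna was detected on 0 arrays. The cause of these changes was not tested.

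Left-out pools set most changes, given here as lowest and highest values. Member probes past the threshold numbered 0 to 3 for rosiglitazone in WT, 0 to 4 between genotypes under rosiglitazone, 0 to 3 for the interaction, 0 to 1 for rosiglitazone averaged over genotypes and 0 to 2 for genotype averaged over treatments, the higher counts without WT rosiglitazone replicate 2, when 19.6%, 24.6%, 12.4%, 13.3% and 20% of all probes passed, and 0 without any other pool. The members' median then ran from -0.22 to 0.58, -0.18 to 0.58, -0.29 to 0.51 and -0.016 to 0.39 in the first 4 of these. For rosiglitazone in WT the ranges were -0.61 to 0.58 (Cdk1), -0.23 to 0.31 (Birc5 ILMN_2632712), -0.088 to 0.83 (Mcm5), -0.27 to 0.097 (Mcm6 ILMN_1233857) and -0.22 to 0.58 (Mcm6 ILMN_2803399). For rosiglitazone in Fgf21-KO they were -0.19 to 0.53 (Birc5 ILMN_2603699) and -0.046 to 0.31 (Birc5 ILMN_2632712). For genotype under vehicle they were -0.13 to 0.30 (Top2a), -0.055 to 0.47 (Cdk1), -0.29 to 0.42 (Birc5 ILMN_2603699), -0.078 to 0.29 (Mcm6 ILMN_1233857) and -0.28 to 0.22 (Mcm6 ILMN_2803399). For genotype under rosiglitazone they were -0.18 to 1.01 (Cdk1), -0.63 to 0.28 (Mcm5), -0.32 to 0.48 (Mcm6 ILMN_2803399) and -0.54 to 0.065 (Bub3), and for the interaction -0.39 to 0.81 (Cdk1), -0.18 to 0.36 (Birc5 ILMN_2632712), -0.77 to 0.14 (Mcm5) and -0.29 to 0.51 (Mcm6 ILMN_2803399).

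No member probe passed with the replicate number as a block (0 in each of the 7 comparisons, and 0 of all probes). Pools with the same number deviated together with correlations of -0.10 to 0.27, the highest between the vehicle groups. With 2 pools a group, these values cannot show whether the numbers mark a pairing. Detection limits what can be said of Ccnb2, Ccna2 and Pcna, and 2 pools a group limit every difference.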
